A study of Mus musculus with 6 samples.

Results

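The JAK kinases and STAT factors were followed here as 9 mouse genes: the kinase genes Jak1, Jak2, Jak3 and Tyk2 and the transcription factor genes Stat3, Stat4, Stat5a, Stat5b and Stat6. The genes were chosen by name as a signalling family, 9 of 21883 protein-coding genes of RefSeq on the mouse build GRCm38. At each, the peaks of 5-hydroxymethylcytosine (5hmC) that overlap the RefSeq span or the 5 kb on either side were collected from 4 libraries. Peaks of different libraries that overlap by 1 bp or more were merged, which gave 46 regions at these genes, of 174070 regions in the genome and 81663 within 5 kb of a protein-coding gene. The 5hmC base is an oxidised form of 5-methylcytosine made by TET enzymes. It was mapped by pulling down sonicated DNA with an antibody to it and sequencing the fragments.

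The cells of both groups were bone marrow cells of C57BL/6 mice of the genotype Tet2fl/fl;CreER, enriched for Kit and carrying the fusion oncogene AML1-ETO on a MigR1 retrovirus with a GFP marker. CreER is a Cre recombinase that excises the floxed Tet2 gene when 4-hydroxytamoxifen (4-OHT) is given. Flox cultures received ethanol for 2 passages (4 days), are labelled Tet2fl/fl and gave 2 libraries. KO cultures received 200 nM 4-OHT over the same period, are labelled Tet2-/- and gave 2 libraries. Drug, active Cre and loss of Tet2 therefore cannot be told apart. All cells grew with stem cell factor and with IL-3 and IL-6 at 10 ng/ml each, after replating in methylcellulose. At passage 5 the cells were sorted for GFP and CD16/32 and against CD11b and Gr1, a gate for immature myeloid cells. The sources used here do not give the age of the mice, the promoter that drives CreER or whether the replicates came from different cultures. The p-values therefore measure only how these libraries vary, which may be technical. Peaks are not RNA, and the label of the cells cannot be checked with them.

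JAK kinases sit on the inner part of cytokine receptors. When a ligand brings receptor chains together, the kinases phosphorylate each other and the receptor, STAT proteins dock there and are phosphorylated in turn, and STAT dimers then enter the nucleus and bind DNA. In blood progenitors the IL-3 receptor works mainly through Jak2 with Stat5a and Stat5b, and the IL-6 receptor through Jak1 with Stat3, so both cytokines of this culture act through genes of the family. Activating changes of Jak2 drive myeloproliferative disease.

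The 4 peak lists held 116539 to 122101 peaks that covered 110.3 to 113.3 Mb, with median peak lengths of 864 to 902 bp. The number of reads behind each list is unknown. Called length means the number of bases of a gene's interval that lie under peaks of a library. It was compared between the groups on the scale log2(bp + 500) with limma over the 14159 genes whose mean reached 500 bp, after scaling each library to the same total. All 9 genes passed this filter, Jak2 only through its flox libraries.

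The promoters are shown before the values. RefSeq sequences of GRCm38.p6 list 12 starts for the 9 genes, each with 250 bases before and 50 after it, and 11 of these 12 windows had no called base in any library. This is near the share over all 21262 such windows of protein-coding genes, of which 86.0% had none. In no window were bases called in all 4 libraries, against 5.28% of all windows. The 120 bases before the start are shown for 4 genes that differ in how near the closest region came. Capitals mark CpG, the dinucleotide in which most 5hmC is found, and each line reads 5′ to 3′ on the gene's own strand, toward the start.
Jak1, chr4:101265224-101265343, minus strand: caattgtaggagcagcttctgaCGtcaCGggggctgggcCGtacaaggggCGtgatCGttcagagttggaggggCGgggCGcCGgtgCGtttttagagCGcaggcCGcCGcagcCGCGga
Jak2, chr19:29251683-29251802, plus strand: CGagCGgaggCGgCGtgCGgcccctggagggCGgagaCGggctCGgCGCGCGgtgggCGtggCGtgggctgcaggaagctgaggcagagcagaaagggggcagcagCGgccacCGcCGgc
Stat3, chr11:100939541-100939660, minus strand: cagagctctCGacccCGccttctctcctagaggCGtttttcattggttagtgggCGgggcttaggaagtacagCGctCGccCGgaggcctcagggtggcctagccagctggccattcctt
Stat4, chr1:51987028-51987147, plus strand: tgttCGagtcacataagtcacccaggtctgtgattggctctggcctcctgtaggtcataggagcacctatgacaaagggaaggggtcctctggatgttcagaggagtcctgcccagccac

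The promoters of Jak1 and Jak2 were rich in CpG. They held 29 and 44 CpG in the window of 300 bases, more than 82.8% and 97.1% of all such windows, and 14 and 16 in the stretches shown. The closest regions lay 2703 bp before the Jak1 start and 2348 bp before the Jak2 start, and both were called in the flox libraries alone. Stat3 held 15 CpG, near the middle of all windows (53.2%), and was the gene with a region over its start: KO replicate 2 had 282 of the 300 bases called there. In the other 3 libraries the peak of the same region began 0.122 to 0.325 kb inside the gene. The first listed start of Stat4 held 2 CpG, and a region called in all 4 libraries ended 372 bp before it. Across all promoters, windows with called bases in all 4 libraries had a median of 16 CpG and windows with none 12, so the windows of Jak1 and Jak2 lay above both medians.

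**Figure D1:**
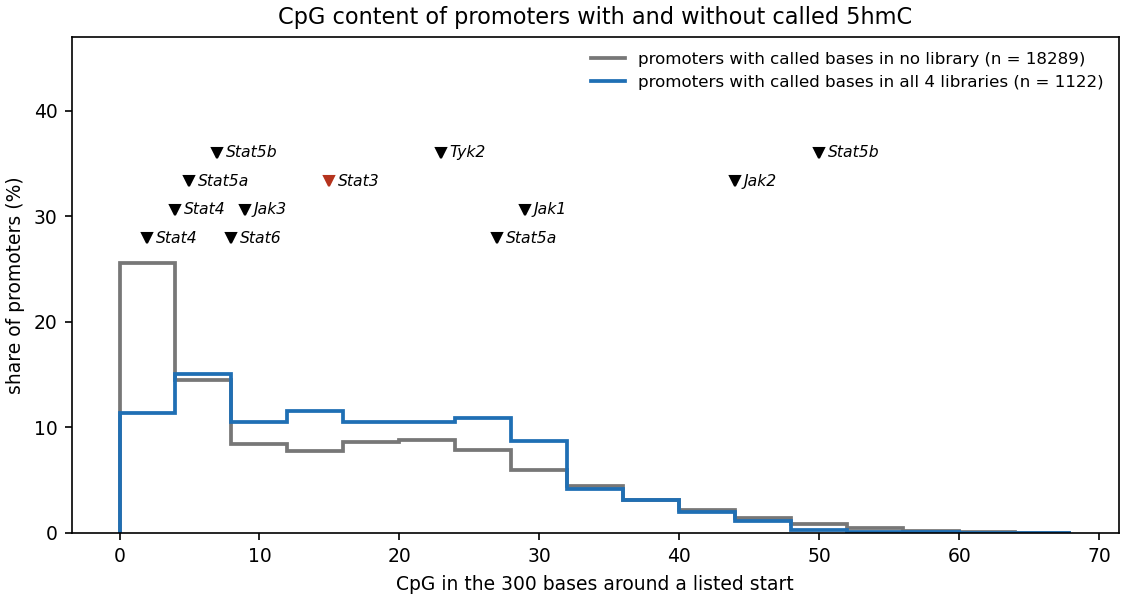
CpG count in the 300 bases around each listed start (x axis) against the share of promoters (y axis, %) for promoters with called 5hmC in all 4 libraries (blue, n = 1122) and in none (grey, n = 18289). Triangles mark the 12 starts of the JAK and STAT genes at their CpG count, with the one start that had called bases (Stat3, in KO replicate 2) in red and their height without meaning. Jak2 (44) and a start of Stat5b (50) stand at the CpG-rich end without called bases.

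Stat5a and Stat5b arose by duplication and still share sequence just before a start. It is the closest match of 30 bases, without gaps, in the 250 bases before the starts, over all pairs of their listed starts. The best windows of the other pairs of starts held 18, 20 and 21 identical bases. The stretch of 30 bases, 28 of them identical, begins 49 bases before the second listed start of Stat5a (chromosome 11, 100860484) and 40 bases before the inner listed start of Stat5b (100822570), with differing bases in capitals.
Stat5a: gcagctgacctttGagGaggaaatcgctgc
Stat5b: gcagctgacctttTagAaggaaatcgctgc
Neither window had a called base in any library. The STAT binding motif TTCNNNGAA, searched as letters, is the same on both strands and was found in none of the 12 windows of the family, against 7.7% of all windows of the same length. A match or its absence describes these letters only.

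Of the kinase genes, Jak1 and Jak2 had less called 5hmC in both KO libraries than in both flox libraries, while Jak3 and Tyk2 overlapped between the groups. Jak1 encodes the kinase paired with the IL-6, interferon and many other receptors (chromosome 4, 101151974 to 101265282, minus strand). Flox replicates 1 and 2 had 7123 and 7461 bp called, against 3722 and 4300 bp for KO replicates 1 and 2. The mean in KO was 0.55 of that in flox, and the log2 difference was -0.78 (SE 0.17). Fewer cells with 5hmC there, less 5hmC per cell and a difference in read depth, which is unknown, cannot be told apart. The difference did not pass the test over all genes (limma unadjusted p = 0.00508, adjusted p = 0.773). Limma called 0 of 14159 genes (0%) at an adjusted p under 0.05, and 869 had an unadjusted p under 0.05. Of these 609 were lower in KO, 4.3% of the genes tested, and Jak1, Jak2 and Stat5b were among them. Jak2 passed the filter only through its flox libraries, so its place there was partly set by the filter.

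The lower length at Jak1 came with peaks that were missing in KO, not only with narrower ones. The gene held 7 regions. Each flox library had 7 peaks there and each KO library 4. A region centred 10.5 kb after the start (101254079 to 101255440) had 1322 and 981 bp in flox and 0 in both KO libraries. Another before the start, at 101267926 to 101268661, had 736 and 403 bp in flox and 0 in both KO libraries. The authors' peak scores there were 69.77 and 76.24 in the first and 53.31 and 116.49 in the second, where 50 is the lowest score in each list. All but the 116.49 of flox replicate 2 lay under the median score of their library (94.17 and 93.42 for flox replicates 1 and 2). A region centred 20.5 kb after the start (101244199 to 101245283) was missing from KO replicate 1 alone. The 3 regions called in all libraries were centred 30.1, 34.6 and 91.5 kb from the start. They held 4033 and 4491 bp (flox) against 3722 and 3244 bp (KO). The widest of the 46 regions was among them (101229483 to 101231802, 2320 bp), with 1811 and 2107 bp (flox) against 2007 and 879 bp (KO). With only the 50000 top-scored peaks per library the log2 difference of Jak1 was -1.81 (limma adjusted p = 0.827). Over its 17 alternatives the lowest adjusted p was 0.291, with the number of peaks as the measure.

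Jak2, the kinase of the IL-3, erythropoietin and thrombopoietin receptors (chromosome 19, 29251803 to 29313095, plus strand), had the lowest mean called length per kb of the family. That mean, 14.2 bp per kb over the 4 libraries, was still above 33.1% of all protein-coding genes, whose lower quartile was 4.6 bp per kb. Jak2 had 1733 and 1750 bp in flox, 569 bp in KO replicate 1 and none in KO replicate 2. The log2 difference was -1.61 (SE 0.50, limma unadjusted p = 0.0204, adjusted p = 0.773). Because a KO library stood at 0, this value hangs on the added constant, and it was -2.82 with 100 bp and -0.72 with 2000 bp in its place. It was -1.06 without KO replicate 2. Of its 4 regions 1 was flox-only, that is, called in both flox and neither KO library. It lay at 29248284 to 29249455 in the 5 kb before the gene, with 910 and 1074 bp and scores of 60.87 and 63.49. Over the gene alone, without the 5 kb on either side, the log2 difference was -0.76 (SE 0.68, limma unadjusted p = 0.317, adjusted p = 0.861). Each of the other 3 regions was called in a single library, with scores from 53.18 to 55.74, and no region of Jak2 was called in all 4. Among tested genes with a span of at least that of Jak2, 8.0% (309 of 3859) had no such region. The nearest regions called in all 4 libraries lay 50.6 kb upstream and 10.9 kb downstream of the gene.

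Jak3, the kinase of receptors with the common gamma chain of lymphoid cells (chromosome 8, 71676383 to 71690577, plus strand), was the most densely covered gene of the family. Per length it had a mean of 180.6 called bp per kb, above 96.8% of all protein-coding genes, whose median was 32.3 bp per kb. It had 4955 and 3471 bp (flox) against 4709 and 4344 bp (KO), and both KO values lay between the flox values (log2 difference 0.12, SE 0.22, limma adjusted p = 0.951). Nearly all of this lay in 3 regions called in every library. The one at 71685672 to 71687856 had scores of 619 and 703.41 (flox) against 939.08 and 749.64 (KO), the highest at any of the 9 genes. The widest of its regions after that one, at 71682387 to 71684467, had 2081 and 1075 bp (flox) against 1908 and 1763 bp (KO). Regions of Jak3 are shared in part with the neighbours Unc13a, Insl3 and B3gnt3, because their extended spans overlap. Tyk2, which serves interferon and IL-12 receptors (chromosome 9, 21104068 to 21131393, minus strand), had 1370 and 3180 bp (flox) against 2328 and 2590 bp (KO). Here too both KO values lay between the flox values (0.18, SE 0.38, adjusted p = 0.958), and the value turned to -0.32 without flox replicate 1. A region at 21113838 to 21115218 was called in all 4 libraries, and one at 21109409 to 21110665 in all but flox replicate 1.

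**Figure D2:**
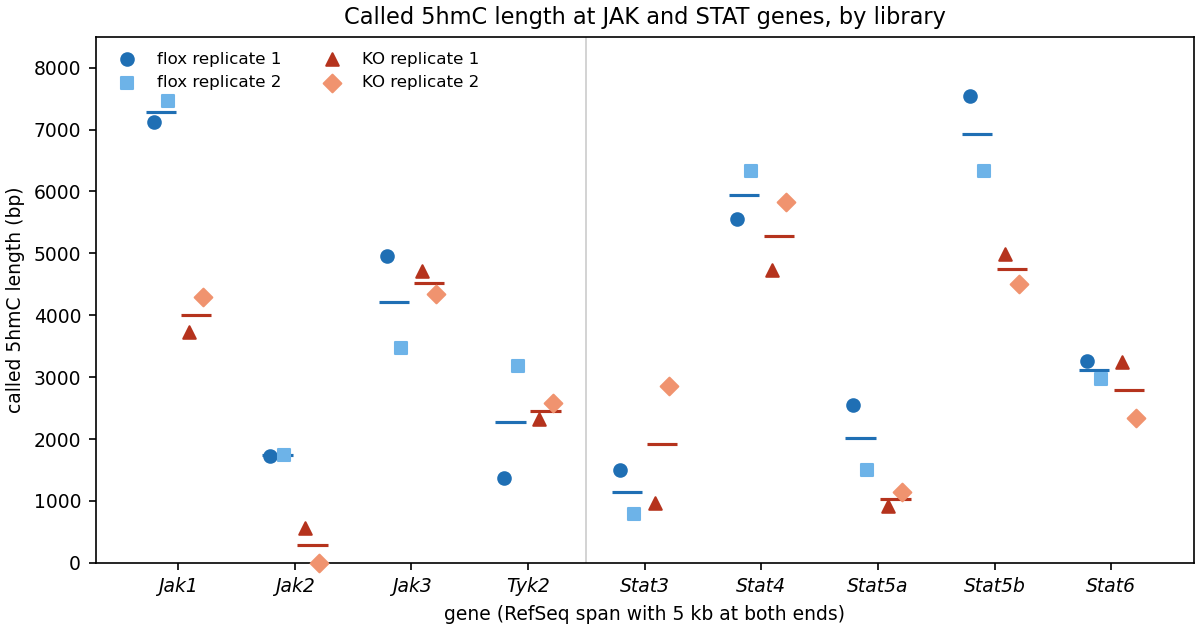
Called 5hmC length (y axis, bp) of each of the 9 genes (x axis) in the 4 libraries, with flox in blue tones, KO in red tones and the mean of each group (n = 2) as a bar. The libraries of the groups do not overlap at Jak1, Jak2, Stat5a and Stat5b, where KO is lower, and overlap at the other 5 genes.

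Among the STAT genes the neighbours Stat5b, Stat5a and Stat3 lie side by side on chromosome 11, with 346 bp between Stat5b and Stat5a and 1636 bp between Stat5a and Stat3. Stat5b, a factor that IL-3 and growth hormone activate (100780731 to 100859004, minus strand), had the largest mean called length of the family when all 4 libraries were averaged. It led in neither group alone, since Jak1 had a larger mean in flox (7292 against 6934 bp) and Stat4 in KO (5278.5 against 4751.5 bp). It had 7538 and 6330 bp (flox) against 4995 and 4508 bp (KO), with both KO libraries below both flox libraries. The mean in KO was 0.69 of that in flox (log2 difference -0.49, SE 0.18, limma unadjusted p = 0.0359, adjusted p = 0.789). Of its 9 regions 3 were called in all libraries, and these held 3395 and 2115 bp (flox) against 3013 and 2421 bp (KO).

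Peaks of both flox libraries, and of no KO library, formed a region of Stat5b at 100793629 to 100794667, with 915 and 986 bp and scores of 59.97 and 56.36. A nearby region called in all 4 libraries (100791062 to 100792184) had 983 and 596 bp (flox) against 965 and 845 bp (KO). The region with the highest scores of the gene, 398.5 to 496.09, lay at 100817897 to 100819813, centred 3.7 kb after the inner start. It had 1834 and 811 bp (flox) against 954 and 769 bp (KO). A further 2 regions were missing from KO replicate 1 alone, at 100804286 to 100805258 and at 100853310 to 100854774. Another, at 100783426 to 100784625, was missing from flox replicate 2 alone, with 924 and 0 bp (flox) against 1200 and 809 bp (KO).

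Stat5a, the partner that IL-3 and prolactin activate (100859351 to 100885169, plus strand), had 2548 and 1496 bp (flox) against 918 and 1148 bp (KO) (log2 difference -0.68, SE 0.32, limma unadjusted p = 0.0842, adjusted p = 0.824). The KO mean was 0.51 of the flox mean and the groups did not overlap. The log2 difference was -0.39 without flox replicate 1 and -0.45 over the gene alone. Part of the difference came from the region at 100853310 to 100854774, which lies inside Stat5b and reaches 424 bases into the 5 kb before Stat5a. Without it Stat5a had 2258 and 1072 bp (flox) against 918 and 1112 bp (KO), and the groups overlapped. It was the only region that 2 of the 9 genes shared. The region inside Stat5a at 100868557 to 100869985 was called in all 4 libraries, with 1429 and 1072 bp (flox) against 918 and 1112 bp (KO).

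Stat3, which acts after IL-6 and G-CSF (100886806 to 100939594, minus strand), had 1505 and 786 bp (flox) against 968 and 2856 bp (KO). KO replicate 2 alone was high, and the log2 difference of 0.48 (SE 0.48, limma adjusted p = 0.889) was -0.11 without it. The region over the start (100938401 to 100939772) had 869 and 786 bp (flox) against 968 and 1312 bp (KO). Its peak scores were 54.81 and 100.44 (flox) against 172.03 and 116.81 (KO). With the 50000 highest scored peaks it was called in both KO libraries and in no flox library.

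Stat4, the factor of the IL-12 response in lymphocytes (chromosome 1, 51987106 to 52107189, plus strand), held the most regions called in every library, 6 of its 9. It had 5554 and 6337 bp (flox) against 4725 and 5832 bp (KO), which overlap (log2 difference -0.15, SE 0.19, limma adjusted p = 0.922). The first of these 6 lay before the gene (51985439 to 51986776) and the last inside it at 52095685 to 52096520. Stat6, the factor of IL-4 and IL-13 signalling (chromosome 10, 127642955 to 127660987, plus strand), had 3267 and 2972 bp (flox) against 3238 and 2337 bp (KO) (-0.14, SE 0.24, adjusted p = 0.951). Per length, with the 5 kb on either side counted, it was the second densest of the family, at 105.4 bp per kb. Its 3 regions called in all 4 libraries also touch the extended span of Nab2, a corepressor gene that overlaps its 3′ end. Only that at 127657296 to 127658510 lies inside Stat6, with 1028 and 994 bp (flox) against 1202 and 795 bp (KO). The region at 127661372 to 127662967 begins 385 bp after Stat6 and lies inside Nab2, with 1538 and 1580 bp (flox) against 1502 and 1340 bp (KO). The widest of the 3 (127665590 to 127667483), also after Stat6, had 1794 and 1768 bp (flox) against 1501 and 1448 bp (KO) over its whole width. Of its 1894 bases 398 lie within the 5 kb after Stat6 and count toward the total of Stat6.

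**Figure D3:**
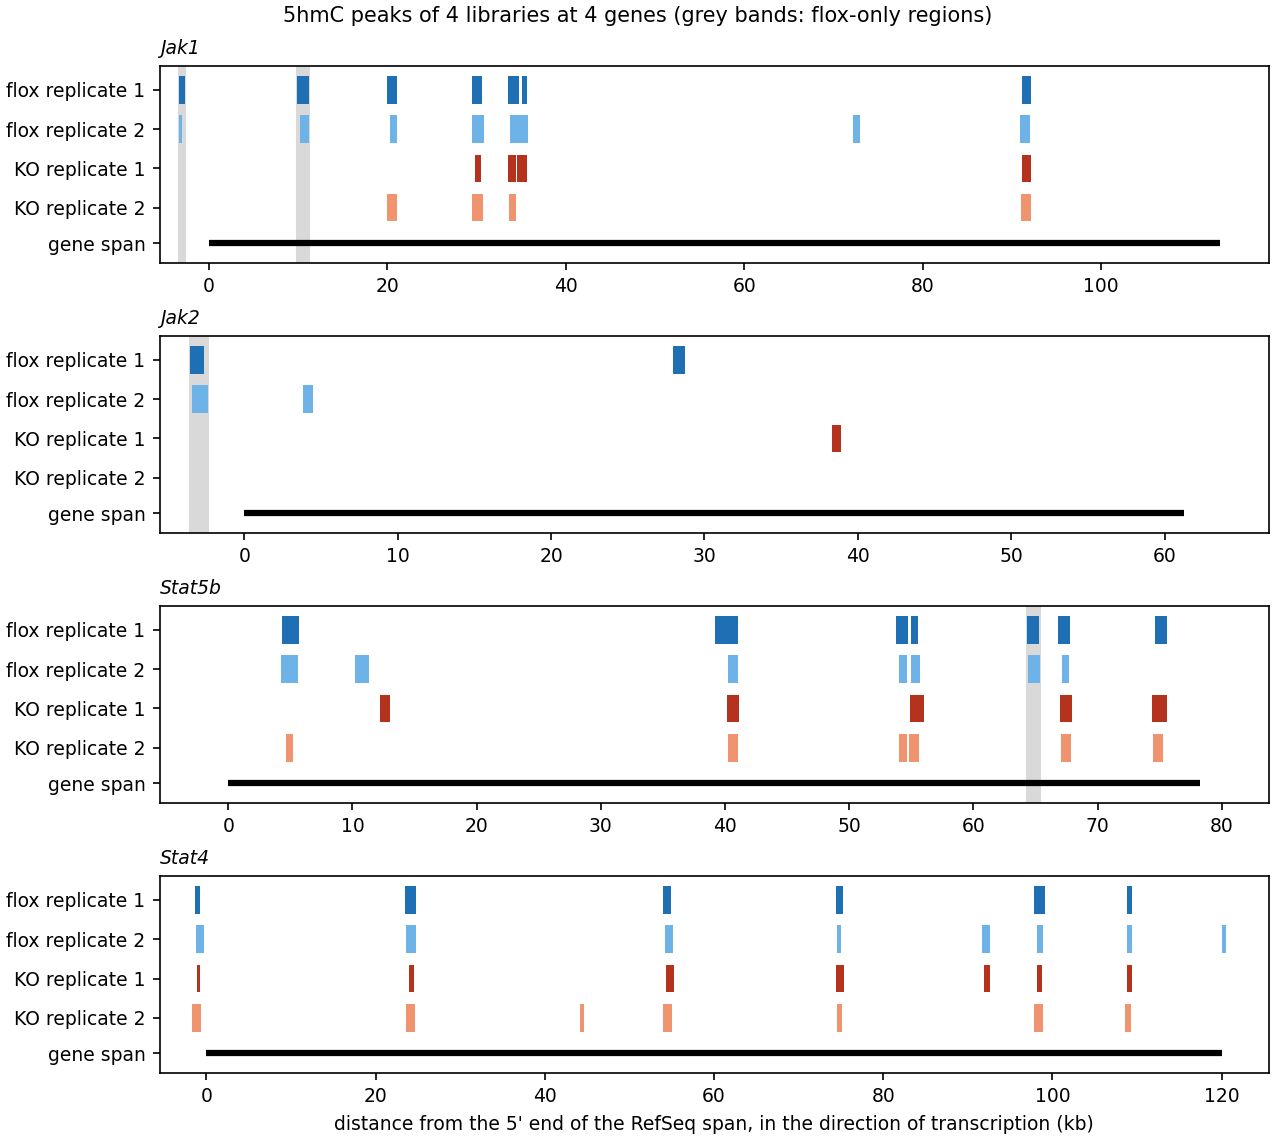
Peaks of the 4 libraries (coloured boxes) at Jak1, Jak2, Stat5b and Stat4, by distance from the 5′ end of the RefSeq span in kb, with the span as a black bar. Grey bands mark the flox-only regions, 2 at Jak1, 1 at Jak2, 1 at Stat5b and none at Stat4.

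Per length, with the 5 kb on either side counted, the order of the family was Jak3 (180.6 bp per kb, mean of 4 libraries), Stat6 (105.4), Stat5b (66.2), Tyk2 (63.4), Jak1 (45.8), Stat4 (43.1), Stat5a (42.6), Stat3 (24.3) and Jak2 (14.2). Over the 4 libraries Jak3 ranged from 143.5 to 204.8 bp per kb and Stat6 from 83.4 to 116.5, and these ranges did not overlap. Further down, the range of each gene overlapped that of the next: Stat5b ran from 51.1 to 85.4, Tyk2 from 36.7 to 85.2 and Jak1 from 30.2 to 60.5 bp per kb. Stat4 ran from 36.3 to 48.7, Stat5a from 25.6 to 71.1, Stat3 from 12.5 to 45.5 and Jak2 from 0 to 24.5 bp per kb.

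Across the family the KO value was lower for 6 of 9 genes and higher for 3, where 54.6% of all genes tested had less. The median log2 difference was -0.15, against -0.04 over all genes. At 4 of the 9 genes each KO library was under each flox library, which was so for 20.7% of all genes tested. At 0 of 9 they lay above, against 14.6% of all genes. Jak2 is among these 4 genes and among the 6 lower ones, and it enters the median. It passed the filter only through its flox libraries, so its place in both counts and in the median was partly set by the filter. Stat5a is among the 4 only with the region that it shares with Stat5b, which is among them too. Without that region the libraries of the groups overlapped at Stat5a. The difference of Jak1 lay below all but 6.2% of those of all genes.

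**Figure D4:**
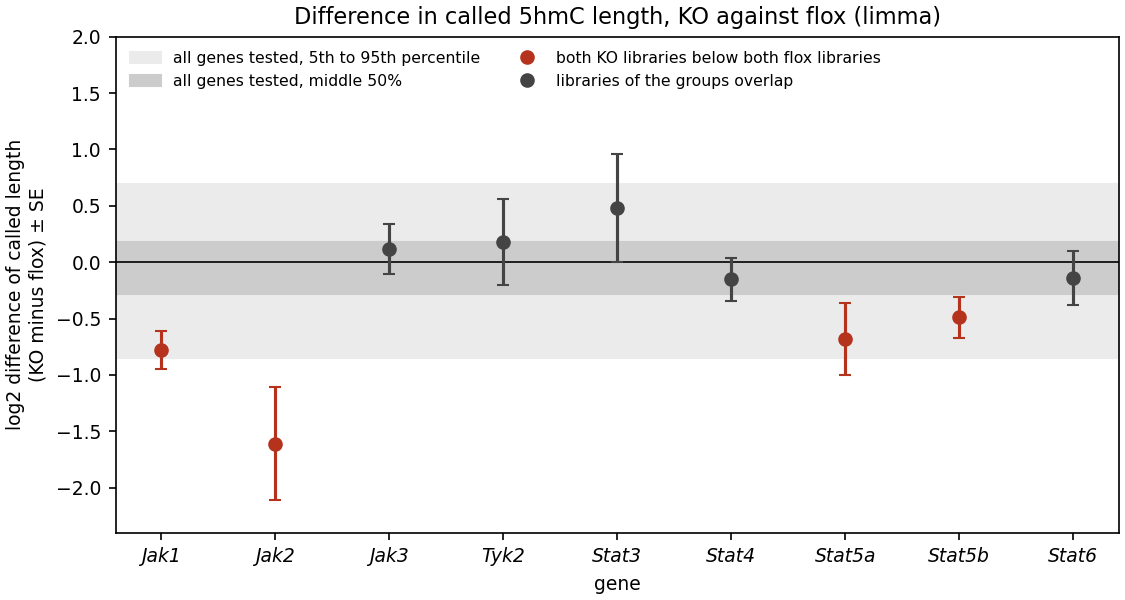
Log2 difference in called length, KO minus flox (y axis, limma estimate with SE, 2 libraries a group), for each gene (x axis). Red points are genes with both KO libraries below both flox libraries, and grey bands give the quartiles (-0.28 to 0.18) and the range without the lowest and highest 5% (-0.85 to 0.69) of all 14159 genes tested. Jak2 lies under the wider band, and the other 8 genes lie inside it.

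By region, 21 of 46 (45.7%) were called in all 4 libraries, where the share over all regions near genes was 40.5%. Another 5 were called in 3 libraries, 3 in a flox and a KO library, and 13 in a single library. Flox-only regions numbered 4 (8.7%), against 3.21% of all regions near genes. The reverse pattern was seen at 0 regions, against 2.74%. The 4 flox-only regions are those named above at Jak1, Jak2 and Stat5b. Their count was 10 without flox replicate 1 and 7 without KO replicate 2, and that of the reverse pattern 1 to 3 with any library left out, since the pattern then rests on fewer libraries. Peak scores were a median of 156.06 in regions called in all 4 libraries (54.81 to 939.08) and 62.18 in the flox-only regions (53.31 to 116.49), so most of the latter scores are near the lower limit of the lists. When peaks scored under 100 were left out, none of the 4 flox-only regions was counted as such. The 1 region then counted as flox-only, at Stat5b (100804286 to 100805258), is called in 3 libraries in the full lists. Its peak in KO replicate 2 (659 bp, score 63.55) fell under the cut.

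The libraries differed in how many of the 46 regions they held. Flox replicates 1 and 2 held 33 and 36, and KO replicates 1 and 2 held 27 and 30. These are 71.7% and 78.3% (flox) against 58.7% and 65.2% (KO), beside 68.1% and 67.9% (flox) against 65.6% and 68.0% (KO) over all regions near genes. Of the 5 regions called in 3 libraries, 3 were missing from KO replicate 1, 1 from flox replicate 1, 1 from flox replicate 2 and 0 from KO replicate 2.

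**Figure D5:**
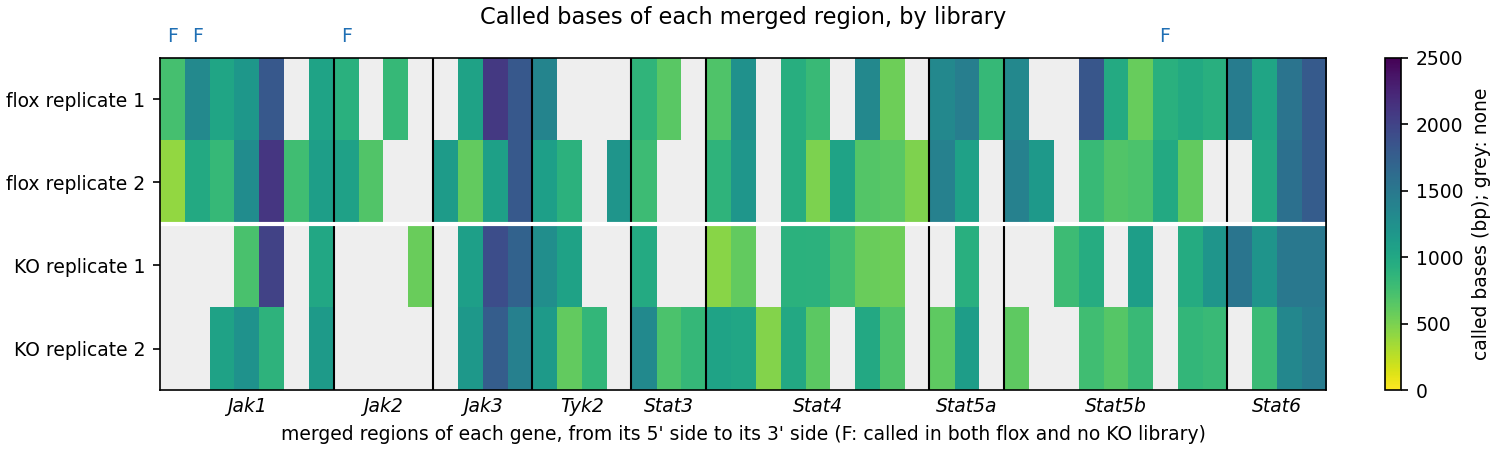
Called bases (colour, bp) of each merged region (columns, by gene from the 5′ to the 3′ side) in the 4 libraries (rows), with grey for no peak. The region that Stat5a and Stat5b share is drawn at both genes, so 46 regions fill 47 columns, and F marks the 4 flox-only regions.

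No other listed gene of the pathway passed the test. The counts of lower genes stand beside 54.6% lower over all genes tested. Of 22 receptor genes 19 could be tested, of which 0 passed limma's test, 16 were lower and 3 higher (median log2 difference -0.31). The lowest p-values were those of Ifngr2, a chain of the interferon gamma receptor (3015 and 2238 bp for flox, 1165 and 803 bp for KO, -1.06, adjusted p = 0.773), and of Csf3r, the G-CSF receptor (2120 and 1807 bp, 861 and 664 bp, -0.96, adjusted p = 0.773). Each KO library was under each flox library at 10 of the 19 receptor genes, 2 of the 14 brakes and 3 of the 7 targets tested, beside 20.7% of all genes, and above at 0 of each. Pim1 is among these 3 targets and passed the filter only through its flox libraries, so its place there was partly set by the filter. Whether other genes of these lists entered in that way was not checked.

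Among 18 genes that brake the pathway, 14 were tested, 0 passed, 12 were lower and 2 higher (median -0.24). Pias2, a SUMO ligase that binds STAT proteins, had 3162 and 3202 bp (flox) against 1239 and 1097 bp (KO) (-1.13, SE 0.24, limma adjusted p = 0.773). Cish, a STAT5 target that feeds back on the receptor, had 3235 and 3155 bp (flox) against 2041 and 2182 bp (KO) (-0.49, adjusted p = 0.824). Of 12 target genes 7 were tested, 0 passed, 6 were lower and 1 higher (median -0.30). Ccnd3, a cyclin of the G1 phase, had 9118 and 11581 bp (flox) against 7924 and 4221 bp (KO) (-0.76, limma adjusted p = 0.814). Pim1, a survival kinase, had 1158 and 956 bp (flox) against 754 and 0 bp (KO) (-0.96, adjusted p = 0.856), with KO replicate 2 at 0. Like Jak2, it passed the filter only through its flox libraries, so its place among the 6 lower targets was partly set by the filter. The same 4 libraries give every one of these values, so the lists do not add up to independent evidence.

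The genes most like Stat5b, the member that the average over all 4 libraries put first, were sought among 4484 genes with 0.5 to 2 times its mean. The measure was the Euclidean distance of gene-centred log2(bp + 500) values over the 4 libraries, scaled as in the fit. Closest were Lrig3 (distance 0.015; 4767 and 4041 bp in flox, 3127 and 2788 bp in KO), Gfod1 (0.042) and Oprd1 (0.05). With 4 values a gene and 4484 candidates, close profiles can turn up without any link between genes, and a link was not tested.

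Genes of the sort and of other blood cells were measured the same way. The 6 genes of the sorted surface markers summed to 13271 and 13914 bp (flox) against 13185 and 15940 bp (KO), which overlap, and 5 of them could be tested, with 3 lower and 2 higher in KO. Of the genes sorted against, the log2 difference was 0.38 for Itgam (CD11b), 0.56 for Ly6c2 and -0.45 for Ly6g (Gr1). Of the genes sorted for, it was -0.39 for Fcgr2b and -0.08 for Fcgr3 (CD16/32), and none of the 5 passed limma's test. The 8 markers of lymphoid, erythroid, plasmacytoid and basophil cells summed to 9240 and 8787 bp (flox) against 11996 and 10052 bp (KO). All 5 that could be tested were higher in KO, where 54.6% of all genes tested were lower, and 0 passed limma's test. At 3 of these 5 each KO library was above each flox library, which was so for 14.6% of all genes. None of the 14 was at 0 in every library, while Ly6c1, Cd3g, Hbb-bt and Mcpt8 were at 0 in 1 or 2. The part of cell makeup in the differences at JAK and STAT genes was not tested.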

How the data were processed

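Peak lists of 4 of the 6 samples of the series were used, 2 flox and 2 KO libraries grouped by their titles. Input and IgG libraries were left aside. CASAVA 1.8, Bowtie, MACS 1.4 and GRCm38 (mm10) stand, without roles, in the submitters' processing notes. No source used here gives caller settings or the control library. Each deposited list gives start and end in bp, a score and a p-value per peak. For every peak the deposited score equals -10 log10 of its p-value (tolerance 0.02). Both are the authors' values within a library and served only to describe, rank or filter peaks. Depth is unknown, and a deeper library can hold more weak peaks.

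Peaks were merged as half-open intervals, with the same number of regions from bedtools 2.31.1 (174070). Called bp per gene (RefSeq span with 5 kb) was scaled to the same total and put on the scale log2(bp + 500). It was fitted by limma 3.58.1 under R 4.3.3, with trend and robust set, for genes with a mean of 500 bp or more, and p-values were adjusted by Benjamini-Hochberg over all genes, with an adjusted p under 0.05 as threshold. Low values give understated differences on this scale. The fit was checked on simulated data. With 2 libraries a group, an exact permutation test allows no p under 0.333, and none is given. Promoter sequences, strands and starts came from RefSeq (GRCm38.p6), where all 9 genes matched. Coordinates count from 1. Exons and peak sequences were not analysed here.

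The members, pathway lists and tests were chosen with earlier results of these data known. Rule for named genes: all 9 members, neighbours that share a region, the 2 genes with the lowest p in each pathway list, the 3 genes most like the member with the largest mean called length over the 4 libraries, the 5 widest regions and each flox-only or KO-only region. The tested sort markers are given outside this rule, all 5 of them, and were added after their values were seen. Python 3.11.15, pandas 2.3.3, numpy 2.4.6 and matplotlib 3.10.9 were used. Alternatives covered peak filters, intervals, pseudocounts, scaling, gene filters, peak numbers, region rules, a replicate block, limma options and each library left out.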

Additional observations from a re-analysis of the deposited data

How the results depend on the processing

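Jak1, Jak2, Stat5a and Stat5b kept less called length in KO in every alternative in which they could be tested (17, 13, 14 and 17 settings). As the scaled values of the groups do not overlap at these 4 genes, leaving out a library could not turn them. Nor could another pseudocount or gene filter, the limma options or the replicate block, which use the same values. Only the peak filters, intervals, peak numbers and scaling could have turned them, so most of these settings say nothing of stability. Jak2 and Stat5a had too little called length to be tested with a score of at least 100 and with the 50000 highest scored peaks, and Jak2 also without the 10% lowest scored peaks. Jak2, Stat5a and Stat3 did not reach a mean of 2000 bp, where that was the filter. No alternative called any gene (0 in each, with 557 to 1188 genes at an unadjusted p under 0.05). With the replicate block the count was also 0. In this balanced design the block cannot move the estimated differences (Jak1 -0.78), so they say nothing of stability there. Same-numbered libraries did not deviate together (correlation over genes 0.007), and they share only a number.

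Other genes turned. With a score of at least 100, Jak3 was -0.05 and Tyk2 -0.21. With the 50000 highest scored peaks, Tyk2 was -0.18, Stat4 0.23 and Stat6 0.36, and 3 of 7 testable members were lower. Tyk2 was -0.05 without the 10% lowest scored peaks. By number of peaks, Jak3 was -0.01 and Stat4 0.01. Leaving out each library gave -0.09 to 0.33 at Jak3, -0.32 to 0.69 at Tyk2, -0.11 to 1.07 at Stat3 and -0.34 to 0.06 at Stat6.

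Flox-only regions numbered 1 with a score of at least 100 and with the 50000 highest scored peaks, 2 without the 10% lowest scored peaks, 2 over the spans alone, 2 with 2 kb at both ends, and 4 to 10 with a library left out. The 1 region with either of the first 2 filters was that of Stat5b at 100804286 to 100805258, which is not flox-only in the full lists. KO-only regions numbered 1 with the 50000 highest scored peaks and 1 to 3 with a library left out. Regions called in all 4 libraries numbered 9 and 7 with the first 2 filters. The cause of these changes was not tested, beyond the fewer peaks or libraries each setting keeps.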
